A study of Bos taurus with 12 samples.

Results

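The mammary levels of 10 genes that mark the luminal epithelium, the cell layer that lines the ducts and alveoli of the gland, were compared in dairy cows before and during feed restriction. The genes were chosen by name for their known roles, by a rule that uses no measured value but was written with earlier results of these data known: the simple keratins KRT7, KRT8, KRT18 and KRT19, the adhesion molecules EPCAM and CDH1, the transcription factors ELF5, GATA3 and FOXA1, and the oestrogen receptor ESR1. They are 10 of the 12787 genes that the array could name, and 24 of its 43653 probes reported them. Each gene was found on the array through its RefSeq transcript identifier, and all probes of a gene were read.

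The samples were mammary biopsies of lactating Holstein cows, whose total RNA was amplified, labelled with Cy3 and hybridised to 1 one-colour Agilent bovine array per sample. In the control group (CONT, 6 arrays) the cows had free access to a lactation ration and were sampled on day 0. In the restriction group (REST, 6 arrays) the same cows had received feed for 50% of their requirement of net energy for lactation, and were sampled on day 6. The labels give each sample's cow, so that 6 cows, numbered 1 to 6 here, each gave a CONT and a REST sample. No cow was kept on full feed for the same days, and the biopsies of a cow came from alternate sides of the rear udder, so restriction, elapsed time and side cannot be told apart. The labels name 6 cows where the series description counts fewer, and the methods mention a Holstein cow excluded for mastitis. Whether that cow is among the 6 is not given in the labels, and each cow was therefore also left out in turn.

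Milk is made by luminal cells, which sit on a contractile myoepithelial layer. Luminal cells hold simple keratins, which form intermediate filaments as pairs of 1 type II chain (KRT7, KRT8) and 1 type I chain (KRT18, KRT19), while myoepithelial cells hold KRT5, KRT14 and KRT17. EPCAM and CDH1 (E-cadherin) hold epithelial cells together. GATA3 maintains luminal identity, ELF5 drives the secretory alveolar branch of the lineage, and FOXA1 and ESR1 mark the hormone-sensing branch, which is the minority of luminal cells in a lactating gland.

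Levels are given as normalized signal, the log2 processed signal of a probe minus the 75th percentile of its array, so that 0 is the 75th percentile. A level compares arrays for 1 probe and is not set against the level of another probe. A change is REST minus CONT in log2 units. It was tested with limma with the cow as a block, and a probe passed at an adjusted p under 0.1 over the 19405 probes tested. A probe was tested where it was well above background on all 6 arrays of at least 1 group. The brightest tested probe of a gene is called its reference probe.

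The arrays lay on 3 slides, with cows 1 and 2, 3 and 4, and 5 and 6 together, so that every slide held both groups equally. The third slide was dimmer: its 75th percentile lay between 73.2 and 117 intensity units against 252 to 390 on the other slides, and 41.9 to 48.0% of its probes were well above background against 61.8 to 67.9%. In 6 of 6 cows the 75th percentile was higher in REST, by 0.17 to 0.45 on the log2 scale, a difference that the normalization removes.

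Of the 24 luminal probes, 15 were tested, and they covered 7 of the 10 genes: KRT7, KRT8, KRT18, KRT19, EPCAM, ELF5 and GATA3. No probe of CDH1, FOXA1 or ESR1 was well above background on all arrays of a group. The biopsies thus gave a measured signal for the keratins, EPCAM, ELF5 and GATA3, and FOXA1 and ESR1, the hormone-sensing markers, were at the edge of detection. CDH1 missed the rule only through the dim slide.

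The keratins KRT8, KRT7 and KRT18 rose in REST in the fit with the cow as a block. None passed without the block, and KRT18 missed the threshold at its reference probe with the cow as a random block (adjusted p = 0.188). They were 3 of the 7 luminal genes tested, and none fell. Of the 7931 genes tested over the array, 16.2% passed, 6.95% higher and 9.27% lower. By probe, 5 of 15 passed, all higher, against 16.0% of all tested probes, 7.22% higher and 8.78% lower. KRT19, EPCAM and GATA3 had higher means that did not pass, and ELF5 had nearly the same mean in both periods. In a piece of tissue, a higher level of a luminal gene because of more luminal cells and because of more RNA per cell cannot be told apart.

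KRT8, the type II keratin of simple epithelia, had the largest change of the 7 genes tested. Its reference probe measured 1.68 in the lowest CONT array, 2.69 at the CONT median and 3.01 in the highest, and 2.48, 3.28 and 3.52 in REST. The groups overlapped, because the lowest REST array was that of cow 4, the cow with the lowest CONT array, but each cow was higher in REST than in its own CONT. The changes by cow were 0.71, 1.07, 0.39, 0.80, 0.82 and 0.50 for cows 1 to 6. The mean rose from 2.48 ± 0.50 to 3.19 ± 0.39 (SD, n = 6 each), a change of 0.72 with a standard error of 0.10 and a 95% confidence interval of 0.49 to 0.95, which is 1.64-fold (limma adjusted p = 0.0089). Among all genes tested, 98.8% had a smaller signed change.

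KRT8 was reported by 4 probes of the same transcript identifier, NM_001033610, and they did not move alike. The third probe moved as the reference probe did, from -1.55 ± 0.55 to -0.88 ± 0.24, a change of 0.67 that was positive in 6 of 6 cows (adjusted p = 0.030). With another background correction its change was 0.30 (adjusted p = 0.0533), against 0.81 at the reference probe. The second probe did not pass, with -0.40 ± 0.25 in CONT and -0.54 ± 0.35 in REST, and was lower in REST in 4 of 6 cows (adjusted p = 0.553). The fourth probe was well above background on 4 CONT and 5 REST arrays and was not tested; its means were -2.80 and -2.19. The change of the reference probe exceeded that of the second probe in 6 of 6 cows, by 0.86 ± 0.56 (SD, n = 6; exact sign-flip test over cows, two-sided p = 0.03125, the smallest that 6 cows allow), and that of the third exceeded it in 5 of 6 cows, by 0.82 ± 0.78 (exact p = 0.0625). These probe comparisons were chosen after the values were seen. Probe sequences were not used here, so where on the transcript each probe lies, and what other keratin transcripts it may bind, was not tested.

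KRT18, the type I keratin that pairs with KRT8, rose by 0.52 at its reference probe. Its CONT arrays ran from -0.02 through a median of 1.16 to 2.09, and its REST arrays from 0.93 through 1.60 to 2.64. The cows were spread more widely than the periods: cow 5 was the highest and cow 4 the lowest in both periods, and 5 of 6 cows were higher in REST, with cow 6 at -0.14. The means were 1.09 ± 0.80 and 1.61 ± 0.64 (SD, n = 6 each), and the change had a standard error of 0.15 and a 95% confidence interval of 0.18 to 0.86, or 1.44-fold (adjusted p = 0.068). The second KRT18 probe (transcript NM_001192095 for all 3) rose by 0.58 in 6 of 6 cows (adjusted p = 0.020), but by 0.29 with another background correction (adjusted p = 0.0673). The third had a change of 0.38, positive in 5 of 6 cows, that did not pass (adjusted p = 0.269). The third probe passed without cow 6 (0.59, adjusted p = 0.0634) and on slides 1 and 2 alone (0.61, adjusted p = 0.0782). With another background correction its change was 0.11. In the ARS-UCD2.0 annotation KRT8 and KRT18 lie on chromosome 5 with 1 gene between them and no protein-coding gene.

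KRT7, the type II keratin of ducts and glands, had 1 probe (NM_001046411). It measured 1.95 in the lowest CONT array, 2.49 at the median and 2.60 in the highest, and 2.34, 3.13 and 3.25 in REST. The REST arrays of cows 1, 2, 4 and 5 lay above every CONT array, while the REST arrays of cows 3 and 6 lay within the CONT range. KRT7 rose from 2.38 ± 0.25 to 2.91 ± 0.43 (SD, n = 6 each), by 0.53 with a standard error of 0.15 and a 95% confidence interval of 0.20 to 0.86, or 1.44-fold (adjusted p = 0.0596). The cow changes went from -0.21 in cow 3 to 1.02 in cow 1, and 5 of 6 were positive. KRT7 is also on chromosome 5, in the same keratin cluster, with 34 genes between it and KRT8.

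KRT19, the smallest keratin, which lacks the tail domain, did not pass. Its reference probe (NM_001015600) ran from 6.29 through a median of 6.56 to 7.32 in CONT and from 6.31 through 6.82 to 7.17 in REST, and the groups overlapped almost wholly. In REST 4 of 6 cows were higher, and cow 5, the highest in CONT, had a change of -0.51. The means were 6.67 ± 0.37 and 6.80 ± 0.29, and the change of 0.12 had a 95% confidence interval of -0.21 to 0.46 (adjusted p = 0.624). The change was 0.00 without cow 1 and 0.25 without cow 5. The other KRT19 probe had a change of 0.21 (adjusted p = 0.486).

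**Figure D1:**
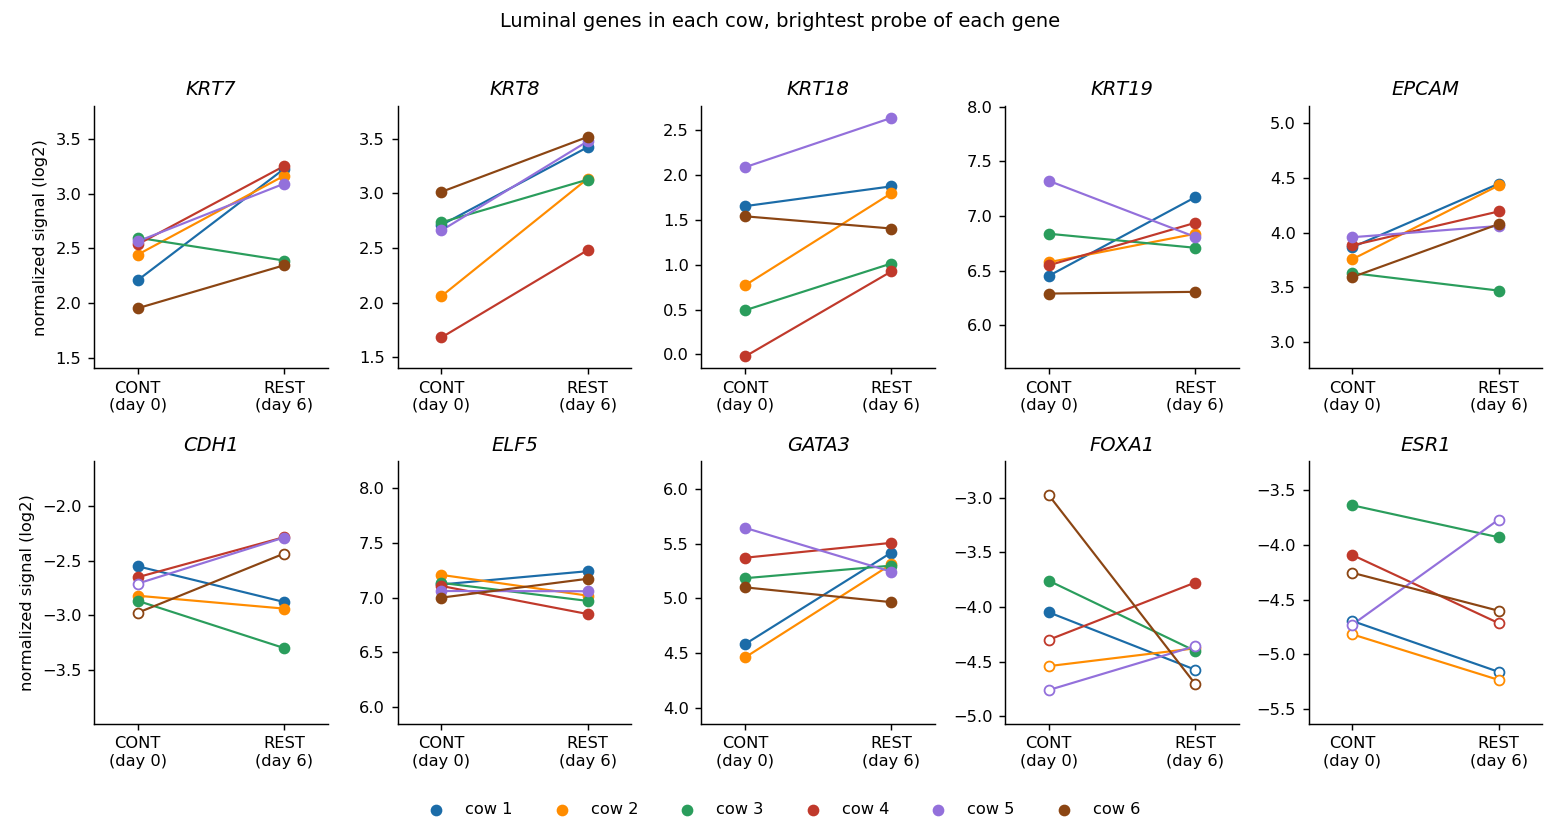
Normalized log2 signal of the brightest probe of each of the 10 luminal genes, with 1 line per cow joining its CONT and REST arrays. Open circles are spots not well above background; KRT8 rises in all 6 cows, ELF5 stays within a range of 0.39 in REST, and CDH1, FOXA1 and ESR1 hold open circles in both periods.

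EPCAM, a cell surface glycoprotein of epithelia, had a higher mean in REST that missed the threshold. CONT arrays ran from 3.59 through a median of 3.81 to 3.96, and REST arrays from 3.47 through 4.14 to 4.45. In all, 5 of 6 REST arrays lay above the highest CONT array, and the REST array of cow 3 lay below the lowest one. The means were 3.78 ± 0.15 and 4.11 ± 0.36 (SD, n = 6 each), and the change was 0.33 with a 95% confidence interval of 0.06 to 0.60 (transcript NM_001035290; limma adjusted p = 0.115). EPCAM passed with cow 3 left out (0.43, adjusted p = 0.0656). Its other probe had a change of 0.28 that was positive in 4 of 6 cows (adjusted p = 0.299).

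CDH1, the adherens junction cadherin, was detected on the brighter slides. Both of its probes (NM_001002763) were well above background on all 8 arrays of slides 1 and 2, in both groups, and on 1 and 0 of the 4 arrays of slide 3. Their means were -2.76 and -2.69 for the first probe and -2.85 and -3.08 for the second, and neither passed in a fit without the detection filter (changes of 0.08 and -0.22, adjusted p = 0.817 and 0.329). In the 4 cows of slides 1 and 2, where every array was detected, the CDH1 changes were -0.33, -0.12, -0.43 and 0.37 at the first probe and -0.44, -0.36, -0.12 and 0.10 at the second, so that cow 4 alone was higher in REST.

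ELF5, the driver of alveolar differentiation, had the smallest spread among cows of the 7 luminal genes tested. Its reference probe (NM_001024569) ran from 7.00 through a median of 7.12 to 7.21 in CONT and from 6.85 through 7.04 to 7.24 in REST, so the REST range enclosed the CONT range. The means were 7.11 ± 0.07 and 7.05 ± 0.14 (SD, n = 6 each). The change of -0.05 had a 95% confidence interval of -0.25 to 0.14 (adjusted p = 0.727), and 2 of 6 cows were higher in REST. The second ELF5 probe measured 6.36 in both groups. The sign of the small difference at the reference probe turned, to 0.06, under another background correction.

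GATA3, the luminal zinc finger factor, had a mean of 5.06 ± 0.46 in CONT and 5.29 ± 0.19 in REST (NM_001076804; SD, n = 6 each). CONT arrays ran from 4.46 through 5.14 to 5.64, and REST arrays from 4.96 through 5.30 to 5.51, so that the REST range lay wholly inside the CONT range. Cows 1 and 2, the lowest in CONT, had changes of 0.84 and 0.85, and cow 5, the highest in CONT, a change of -0.40. The mean change of 0.23 had a 95% confidence interval of -0.16 to 0.62 and did not pass (adjusted p = 0.407), and neither did the second probe (0.16, adjusted p = 0.598). Without cow 1 or cow 2 the change was 0.11, and without cow 5 it was 0.36.

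FOXA1, a pioneer factor that opens chromatin for the oestrogen receptor, and ESR1 itself gave only marginal signals. The brighter FOXA1 probe (NM_001206029) was well above background on 2 CONT and 3 REST arrays, with means of -4.06 and -4.36, and the other on none. Of the 4 ESR1 probes (NM_001001443), the brightest cleared background on 2 CONT arrays and 1 REST array and the others on 0 or 1 array of a group, and their means lay between -5.62 and -4.37. None of their probes passed in a fit without the detection filter (limma adjusted p = 0.580 and 0.737 for FOXA1, and 0.429 to 0.631 for ESR1), and no change is given at this level. None of the 9 untested luminal probes passed in that fit, and only 1 of them, the fourth KRT8 probe, had an unadjusted p under 0.05.

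**Figure D2:**
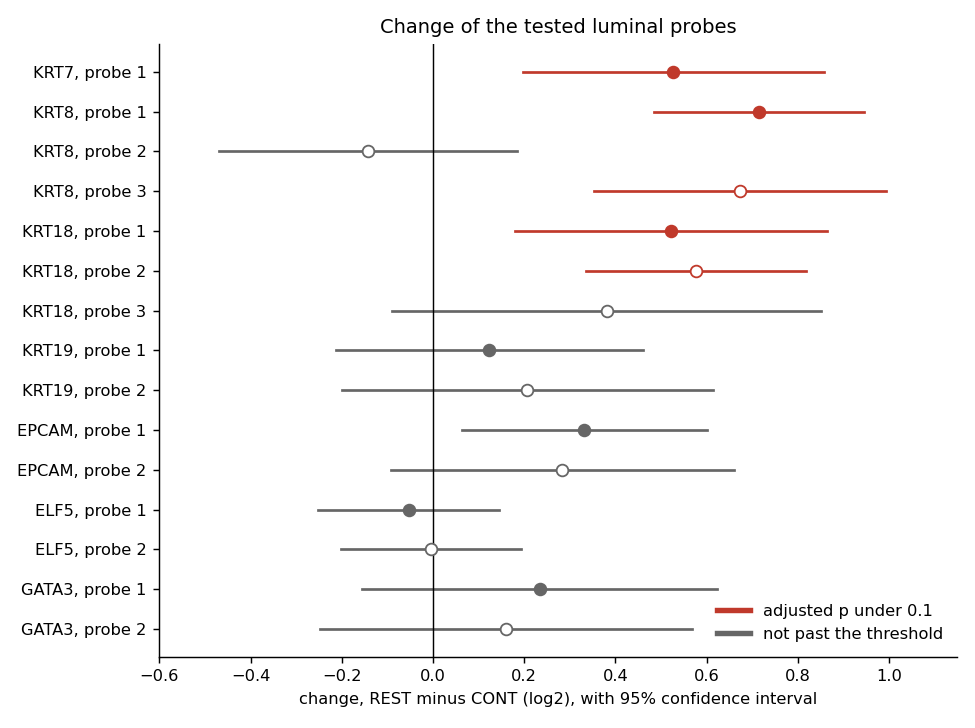
Change of each of the 15 tested luminal probes, REST minus CONT in log2 units, with its 95% confidence interval. Filled points are reference probes, open points other probes and red marks an adjusted p under 0.1; the 5 red probes belong to KRT7, KRT8 and KRT18, and 1 KRT8 probe sits at -0.14.

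Over the 7 luminal genes tested, 6 had a positive change, with a median of 0.33 against -0.01 over all genes tested, 51.6% of which were lower in REST. The groups of arrays overlapped for all 7, while 2.28% of all genes tested had groups that did not overlap. KRT8 was the only one of the 7 reference probes that moved the same way in all 6 cows, against 18.3% of genes over the array. Where the cow was not a block, KRT8, KRT7 and KRT18 had limma adjusted p of 0.133, 0.171 and 0.508: none of the 15 probes passed, 4 had an unadjusted p under 0.05, and 4.31% of all tested probes and 4.41% of all tested genes passed. The reference-probe calls of KRT7 and KRT18 were also lost with single cows left out. With cow 1, 2 or 4 left out, KRT7 had an adjusted p of 0.143, 0.164 and 0.155, and KRT18 had 0.104, 0.182 and 0.176, or 0.121 and 0.101 with cow 3 or 5 left out. KRT8 passed in each of these fits, and so did the second KRT18 probe (adjusted p = 0.0236 to 0.0686 over the 6 cows left out). With the cow as a random block, the second KRT18 probe passed (adjusted p = 0.0973), and so did EPCAM (adjusted p = 0.0865).

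The changes in 10 pairs of luminal genes were compared cow by cow, as the difference within a pair, with an exact two-sided sign-flip test over 6 cows. None passed at 0.1 after adjustment over the 10 pairs (lowest adjusted p = 0.156), and 1 had an unadjusted p under 0.05. A single pair at 0.03125, the smallest p that 6 cows allow, could not have passed that adjustment. The change of KRT8 exceeded that of ELF5 in 6 of 6 cows, by 0.77 ± 0.35 (SD, n = 6; exact p = 0.03125), and that of KRT19 in 5 of 6 cows, by 0.59 (exact p = 0.0625). KRT7 and KRT18 differed by 0.01 in their mean change (exact p = 1). The filament partners KRT8 and KRT18 differed by 0.19 (exact p = 0.25). With 6 cows the test did not settle whether the keratins that rose differ in their change from KRT19 or ELF5.

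The genes also differed in how far cows stood apart on full feed. The 6 CONT arrays spanned 0.21 log2 units for ELF5 and 0.36 for EPCAM, but 1.33 for KRT8 and 2.11 for KRT18. Among all genes tested, 1.19% had a smaller CONT standard deviation than ELF5, and 98% had a smaller one than KRT18. In REST the spans were 0.39 for ELF5, 0.98 for EPCAM, 1.04 for KRT8 and 1.71 for KRT18. In REST only KRT8 and KRT18 of the 7 genes spanned more than EPCAM. A change of spread was not tested.

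By slide, with 2 cows each, the mean change of KRT8 was 0.89, 0.59 and 0.66, and that of KRT7 was 0.87, 0.25 and 0.46. KRT18 gave 0.62, 0.73 and 0.21, and EPCAM 0.63, 0.07 and 0.29. The keratins that rose and EPCAM were positive on every slide, the dimmest one included. KRT19 (0.49, 0.13 and -0.25) and GATA3 (0.84, 0.13 and -0.27) were highest on the first slide and negative on the third. ELF5 stayed between -0.21 and 0.09.

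**Figure D3:**
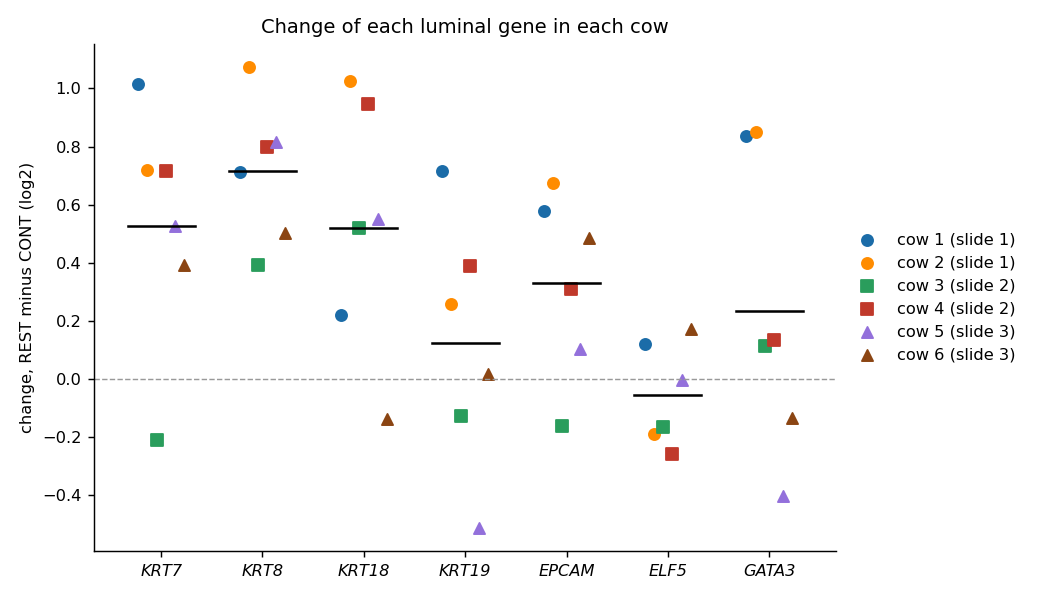
Change of each tested luminal gene in each cow, REST minus CONT in log2 units at the reference probe, marked by slide. KRT8 is above 0 in 6 of 6 cows, KRT7, KRT18 and EPCAM in 5 of 6, KRT19 and GATA3 in 4 of 6 and ELF5 in 2 of 6.

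The genes whose profile over the 12 arrays, centred on its mean, lay closest to KRT8 were APOE, VWF and EFNB1. Their root mean square differences from KRT8 were 0.24, 0.28 and 0.29 log2 units, against a median of 0.59 over the 7924 genes compared. These profiles hold the difference between the periods, so that the changes of the genes chosen by them are a description. The change was 0.71 for APOE, an apolipoprotein, 0.54 for VWF, the endothelial von Willebrand factor, and 0.28 for EFNB1, an ephrin.

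Of 12 listed junction and desmosome genes, which hold epithelial cells together, 8 were tested, 3 rose and 5 did not pass, against 6.95% of all genes tested that rose. The median change was 0.14, but 0.11 without cow 6, 0.22 without cow 3 and 0.21 with another background correction. JUP (plakoglobin) rose by 0.45 (adjusted p = 0.097), DSG2 (desmoglein, a desmosomal cadherin) by 0.33 (adjusted p = 0.058) and CTNNA1 (alpha-catenin, which links cadherins to actin) by 0.31 (adjusted p = 0.048). The 5 others had changes from 0.00 (CTNND1) to 0.17 (PKP2). None of the 3 passed with cow 1, 2 or 4 left out, and DSG2 was also lost without cow 6. JUP was lost without cow 3 or 6, with the cow as a random block, with the slide as a block and under a median shift. CTNNA1 alone passed without the cow block, but it did not pass on slides 1 and 2 alone.

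Among the other keratins, 5 of 12 listed were tested, 1 rose and 1 fell. For this list and those below, the shares over all genes tested were 6.95% higher and 9.27% lower. KRT17, a basal keratin, rose by 0.44 (adjusted p = 0.079), and KRT80 fell by 0.39 (adjusted p = 0.082). The basal pair KRT5 and KRT14 had changes of 0.25 and -0.17 (adjusted p = 0.345 and 0.294). KRT5 passed, higher, with another background correction, and KRT15 passed, higher, without cow 5 and on slides 1 and 2 alone. Neither KRT17 nor KRT80 passed without the cow block or with cow 1, 2, 3 or 4 left out, and KRT80 did not pass with the cow as a random block.

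Of 12 tested of 18 listed transcription and splicing factors of epithelial identity, 1 passed, where 16.2% of all tested genes did: ESRP2, an epithelial splicing factor, fell by 0.37 (adjusted p = 0.091), and the median was 0.00. ESRP2 did not pass with cow 2, 3, 4 or 5 left out, without the cow block, with the slide as a block or under a median shift. Of 12 tested luminal surface and secreted genes of 17 listed, SPINT2, an inhibitor of epithelial serine proteases, rose by 0.33 in 6 of 6 cows (adjusted p = 0.057). The median over the list was -0.04, but 0.04 under another background correction, 0.02 without cow 3 and -0.13 without cow 1. SPINT2 did not pass with cow 1, 2, 4 or 6 left out or without the block.

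Genes of the hormone-sensing branch were tested for 8 of 13 listed. TFF3, a secreted trefoil peptide, rose by 0.65 (adjusted p = 0.037), while the cyclin CCND1 fell by 0.83 (adjusted p = 0.059) and the nuclear receptor coactivator NCOA3 fell by 0.37 in 6 of 6 cows (adjusted p = 0.055). PGR, the progesterone receptor and a classic oestrogen target, had a change of -0.04 (adjusted p = 0.850). GREB1, another gene known to respond to oestrogen, had a change of 0.42, higher in 6 of 6 cows, that missed the threshold (adjusted p = 0.105), and it passed under a median shift, quantile normalization, detection on all 12 arrays, limma with a trended and robust prior, and without cow 3. Without cow 2 none of TFF3, CCND1 and NCOA3 passed, without cow 1 or 4 CCND1 and NCOA3 were lost, and without cow 6 CCND1 was lost. NCOA3 did not pass with another background correction, nor TFF3 with the slide as a block. Without the cow block CCND1 and NCOA3 passed and TFF3 did not.

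Genes of the alveolar branch, the setting in which ELF5 acts, were tested for 9 of 12 listed. SOCS2, a feedback inhibitor of hormone receptor signalling, fell by 0.59 and CEBPB, a transcription factor of the alveolar lineage, by 0.32, each in 6 of 6 cows (adjusted p = 0.035 and 0.056). ID2, a regulator of alveolar differentiation, rose by 0.46 (adjusted p = 0.045). The prolactin receptor PRLR and its mediator STAT5A did not pass, with changes of -0.22 and 0.05 (adjusted p = 0.216 and 0.786). Of their partners, STAT5B had a change of -0.37, lower in 5 of 6 cows (adjusted p = 0.109), and CISH, a target of this pathway, -0.73, lower in 4 of 6 (adjusted p = 0.148). STAT5B passed with detection on all 12 arrays, with a trended and robust prior and without cow 3, and CISH passed with the cow as a random block and without cow 6. SOCS2 passed with each cow left out in turn, CEBPB was lost without cow 1, 2 or 3, and ID2 without cow 2 or 4. Without the cow block SOCS2, ID2 and CEBPB had adjusted p of 0.136, 0.133 and 0.235.

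Of the genes of epithelial to mesenchymal transition, which mark loss of epithelial identity, 5 of 9 were tested. TWIST1 passed with a change of 0.83 (adjusted p = 0.046), but its CONT signal cleared background on 4 of 6 arrays, so that it was tested only through REST, the group where it was higher. It was not tested where detection on all 12 arrays was required, and it did not pass without cow 2 or 4 or with another background correction. ZEB1 and VIM (vimentin) had changes of 0.03 and 0.33 (adjusted p = 0.871 and 0.134). VIM passed with the cow as a random block, with another background correction, with a trended and robust prior and without cow 1. The median over the 5 genes was 0.24, but 0.13 without cow 2 and 0.08 with another background correction, and 4 of the 5 changes were positive.

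Markers of the other cells of the gland moved beside these results, and their part in the luminal changes was not tested. Of 8 endothelial markers, all tested, CLDN5 and VWF rose by 0.74 and 0.54 (adjusted p = 0.012 and 0.007), and the summed level (linear signal relative to the 75th percentile) was 18.5 to 29.6 in CONT and 27.5 to 36.9 in REST, higher in 6 of 6 cows. The other 6 endothelial markers did not pass, with changes from -0.15 (KDR) to 0.32 (PECAM1). Of 5 tested milk protein genes, CSN3 and CSN1S1 fell by 0.28 and 0.26 (adjusted p = 0.078 and 0.091). The sum over the 5 genes was 4229 to 5455 in CONT and 3414 to 4479 in REST, lower in 6 of 6 cows. The median change of the milk protein genes was -0.20, but 0.01 under quantile normalization and -0.07 with another background correction. Neither CSN3 nor CSN1S1 passed in these 2 fits, without the cow block, with the slide as a block, or without cow 1, 2, 3, 4 or 6. With a trended and robust prior all 5 tested milk protein genes passed, lower.

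Of 9 tested myoepithelial markers of 10 listed, KRT17 rose and CNN1, a smooth muscle calponin, fell by 0.53 in 6 of 6 cows (adjusted p = 0.032). ACTA2, named after its value was seen, fell by 0.38 (adjusted p = 0.086), and the summed level was 126 to 235 in CONT and 116 to 223 in REST, lower in 5 of 6 cows. Of the 9 changes, however, 5 were positive and 4 negative, with a median of 0.04, and of -0.01 without cow 4. With another background correction the median was 0.13, KRT17, KRT5 and MYH11 passed, higher, and CNN1 alone passed, lower. TAGLN passed, lower, with a trended and robust prior. TP63, the defining myoepithelial transcription factor, was not well above background. Of 6 genes listed as adipocyte markers, FABP4 fell by 0.35 and CIDEA by 0.27 (adjusted p = 0.045 and 0.078), with a sum of 216 to 406 against 181 to 295, lower in 6 of 6 cows. CIDEA is also known from the secretory cells of lactating glands, and PLIN1, LEP and CIDEC, which define adipocytes, were not well above background, so that the sum is not one of adipocyte genes alone. KRT17, CNN1, ACTA2, FABP4 and CIDEA did not pass without cow 2, without the cow block or with the slide as a block, and FABP4 was also lost without cow 4. FABP4, CIDEA and ACTA2 did not pass with another background correction. CIDEA was also lost under a median shift, and ACTA2 under quantile normalization. ACTA2 and CIDEA did not pass with the cow as a random block. Of the fits that left out 1 cow, ACTA2 passed only in that without cow 4 and CIDEA only in that without cow 5.

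Of 9 tested leukocyte markers of 11, CD8A and CD3E, both of T cells, passed with changes of 0.45 and 0.35 (adjusted p = 0.035 and 0.078), and the sum was 20.7 to 29.9 in CONT and 25.6 to 33.6 in REST, higher in 4 of 6 cows. CD8A was well above background on 5 CONT and 6 REST arrays, so that it too was tested only through REST, and it did not pass with the cow as a random block. CD3E did not pass without cow 1, 2, 3, 4 or 6, nor did either without the cow block. Among the other 7 leukocyte markers, 4 had negative changes that did not pass: PTPRC, the pan-leukocyte CD45, at -0.15, AIF1 at -0.17, CD14 at -0.09 and CD79A at -0.04. None of 7 tested fibroblast markers passed in limma (2 with an unadjusted p under 0.05; median -0.31; sums of 34.6 to 66.0 and 27.1 to 76.1). Without cow 3 the collagens COL1A1 and COL3A1 passed, lower, and the fibroblast median was -0.48, while it was -0.17 without cow 1 and -0.16 with another background correction. None of 2 tested erythrocyte markers passed in limma (2 with an unadjusted p under 0.05; median -0.37; sums of 13.9 to 20.3 and 10.4 to 20.7). HBA passed, lower, with the cow as a random block, with a trended and robust prior and without cow 1, and AHSP passed, lower, without cow 6 and on slides 1 and 2 alone. Both passed, lower, where detection on all 12 arrays was required, while HBB, HBM, ALAS2 and SLC4A1 were not well above background. Of 2 tested muscle markers, CKM fell by 0.36 (adjusted p = 0.070; lost without cow 1, 2, 3 or 4, without the cow block, with the cow as a random block, with the slide as a block and without the filter on dim probes), with sums of 2.05 to 3.73 and 1.72 to 2.94.

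**Figure D4:**
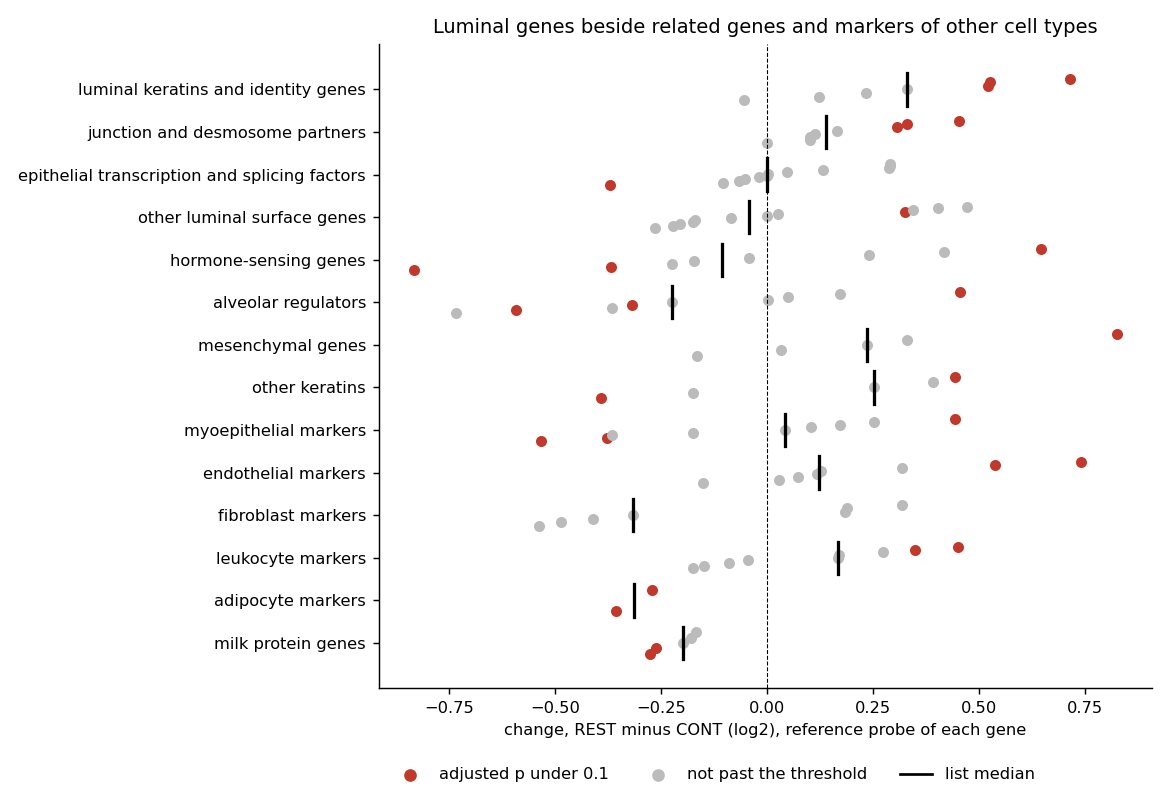
Change of each tested gene of the luminal list and of the related gene and marker lists, except the erythrocyte and muscle lists, REST minus CONT in log2 units at the reference probe, with red for an adjusted p under 0.1 and a bar at the list median. The luminal list has a median of 0.33, the endothelial list 0.12 and the alveolar list -0.22.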

How the data were processed

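Mammary RNA was measured on 12 one-colour arrays, CONT and REST of 6 cows. Per the labels, the authors read spot signals using Agilent Feature Extraction 11. Each deposited scanner file gives a background-subtracted processed intensity per spot, not scaled between arrays. The series table deposited by the authors repeated that intensity in 45220 of 45220 cells per array, so the shift to the 75th percentile named in the methods had not been applied and was computed here, over non-control spots on the log2 scale.

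Spots marked as outliers (1 to 13 per array) were left out and repeat spots averaged. Of 43653 probes, 62.2% had a symbol through RefSeq identifiers. Changes were tested with limma 3.58.1 in R 4.3.3 (cow as a block, eBayes, two-sided, Benjamini-Hochberg over 19405 probes). The methods do not state pairing. The labels give the same animals in both periods, and the residual correlation was 0.356 to 0.574 within cows and -0.326 to 0.135 between them. The fit was tested on simulated data. The sum over a list adds linear signals of reference probes.

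Members, lists and tests were chosen with earlier results of these data known. Genes named outside the 10 were at most 3 passing genes per related list and 2 per marker list, by size of change, with others named for their role after their values were seen, and the 3 profiles nearest to the member with the largest change. Alternatives were other blocks, scalings, backgrounds and filters, and each cow left out. The precision is limited by 6 cows, and arrays give no counts.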

Additional observations from a re-analysis of the deposited data

How the results depend on the processing

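Without the replicate block (unpaired fit) the number of probes that passed was 837 of 19405 instead of 3105, and 0 luminal probes and 0 luminal genes passed, where 4 luminal probes and 3271 probes in all had an unadjusted p under 0.05 in limma. With the slide in place of the cow as a block, 1899 probes passed, with 1 luminal probe and 1 luminal gene (KRT8). In the other lists only CTNNA1, DSG2, SPINT2, CCND1, NCOA3, ID2, SOCS2, TWIST1, CLDN5 and VWF passed there. Without the filter on dim probes, 388 of 43653 probes passed, again with 1 luminal probe and 1 luminal gene. The adjustment then ran over more probes, and in the other lists only CLDN5 and VWF passed. Leaving out each cow in turn gave 1045 to 3292 probes, 3 to 6 luminal probes, 1 to 3 luminal genes and a median luminal change of 0.26 to 0.43, and without cow 1, 2 or 4 KRT8 was the only luminal gene to pass at its reference probe (the second KRT18 probe passed too). ELF5 turned to 0.062 (adjusted p = 0.644) under normexp background correction, where the cause was not tested. At its reference probe KRT8 passed in 17 of 18 alternatives (change 0.64 to 0.81, adjusted p 0.00135 to 0.133). The reference probe of KRT7 passed in 11, that of KRT18 in 9 (not with the cow as a random block, adjusted p = 0.188) and that of EPCAM in 5. The reference probes of KRT19, ELF5 and GATA3 passed in none. Of the 18, the deposited values repeat the main fit by construction, and keeping marked spots left the luminal changes as they were. The second KRT8 probe passed in none and its change was negative in each. The third was lost without the cow block, with the slide as a block and without the filter on dim probes. Slides 1 and 2 alone, an alternative chosen after seeing the data, left KRT7 at an adjusted p of 0.112, and there the second KRT19 probe passed (0.47, adjusted p = 0.0862). The number of cows (6) and signals near background limit what can be said of FOXA1 and ESR1, and of CDH1 on slide 3.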
